A study of Mus musculus with 108 samples.

Results

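A protein bound for secretion has to enter the endoplasmic reticulum (ER) before it can fold, and the 31 genes described here encode the machinery that takes it in and first processes it. They are the subunits of the signal recognition particle (SRP) and its receptor (7 genes), the Sec61 channel and its partners (6), the TRAP complex (4), the signal peptidase complex (5) and the oligosaccharyltransferase (9). Members were named by gene symbol and not picked by their measured values, although earlier results of these data were known. All 31 were found among the 45195 gene rows of the expression table.

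Acinar cells make and store the digestive enzymes of the pancreas. They were picked singly after dissociation of pancreas from untreated C57BL/6 male mice 12 weeks old. Full-length cDNA was made from each cell by a modified SMART-seq2 procedure without molecular identifiers, and values are TPM, a share of reads corrected for transcript length. All cells carried the same label and no animal, day or plate was named, so the cells formed 1 sample, SDs and ranges describe the spread between cells, and no p-value was computed. Spike-in RNA was added to 24 cells, which the labels do not identify.

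The label "acinar" was checked on marker genes: 9 of 10 acinar markers were at or above 1 TPM in every cell, and the 10 summed to no less than 301815 TPM. None of 5 lymphocyte markers reached 1 TPM in any cell (the limit that a count of 0 cells leaves is 2.78% of cells). Summed endocrine markers reached at most 8.84 TPM, in cell 78, while summed ductal markers reached 382 TPM in cell 15 and endothelial markers 61.2 TPM in cell 40. The columns of 21 cells, numbered 92 and above, add up to only 788380 to 990520 TPM instead of 1000000, and these are called short-total cells, against 87 full-total cells. Their median number of genes detected (at or above 1 TPM) was 3939, against 4224, and single cells had between 2624 and 6946 (cell 40). Read depth per cell is unknown, since TPM do not keep it.

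As background, the SRP binds the signal sequence of a nascent chain as it leaves the ribosome and hands the ribosome to the SRP receptor on the ER membrane. The chain then passes through the Sec61 channel, helped for some substrates by TRAM, TRAP or the Sec62 and Sec63 proteins. Signal peptidase cuts off the signal sequence, and the oligosaccharyltransferase moves a preassembled sugar tree from a lipid carrier onto asparagine residues of the entering chain. Pancreatic acinar cells are the classic tissue for this pathway, since nearly all of their protein synthesis serves secretion.

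The levels of 2 members could not be read without their copies, so these sequences come first. The mRNA of Sec61g, the small tail-anchored subunit of the channel, has a copy in the annotation, Gm10177, a transcribed processed pseudogene at chr9:37252922-37253365 on GRCm38 (plus strand). Sec61g itself lies at chr11:16500530-16508484 (minus strand). The transcript used for Sec61g has 1862 bases. The annotated transcripts are identical over 420 bases, which include the whole coding sequence of 207 bases for 68 residues. It is printed once because every base is shared.
Sec61g and Gm10177: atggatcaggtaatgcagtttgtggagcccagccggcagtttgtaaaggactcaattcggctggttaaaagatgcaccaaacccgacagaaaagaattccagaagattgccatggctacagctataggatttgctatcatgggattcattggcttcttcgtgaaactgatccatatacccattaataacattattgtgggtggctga

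Srp9, which forms the Alu-binding end of the SRP together with Srp14, has such a copy too. Srp9 lies at chr1:182124737-182132407 (plus strand), and the processed pseudogene Gm13736 at chr2:87526145-87526397 (plus strand) matches it over 253 bases without a difference. All of these bases are coding, from base 2 to base 254 of the 261 coding bases of Srp9.
Srp9 and Gm13736: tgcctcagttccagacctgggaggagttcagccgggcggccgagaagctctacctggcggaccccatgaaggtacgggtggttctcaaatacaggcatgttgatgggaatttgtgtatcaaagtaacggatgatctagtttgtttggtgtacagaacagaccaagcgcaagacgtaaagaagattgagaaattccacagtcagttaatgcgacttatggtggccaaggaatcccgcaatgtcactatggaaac

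A copy that can be told from its parent is shown for contrast. Gm10320 at chr13:98489348-98492001 (minus strand) matches Sec61b, the other small channel subunit at chr4:47474658-47483242 (plus strand), at 98.3% of 474 bases. Over coding bases 4 to 291 of Sec61b the copy differs at 3 positions, counted from the A of the start codon and written with the base of Sec61b first: G130A, G247T and A288G. The last 60 coding bases are printed with the differing bases in capitals.
Sec61b, coding bases 232 to 291: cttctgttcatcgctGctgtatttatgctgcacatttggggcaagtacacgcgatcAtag
Gm10320, the same stretch: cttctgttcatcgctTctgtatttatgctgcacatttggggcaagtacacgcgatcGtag

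The deposited values were divided very unevenly between Sec61g and its copy. Sec61g had 6.96 ± 3.79 TPM (SD over all cells), from a listed 0 in the cell with the fewest genes through a median of 6.55 to 22.11. Gm10177 had 175 ± 63.6 TPM, from 46.74 through 170 to 370.61, and was higher than Sec61g in every cell. The level listed under Sec61g is therefore a small part of what was assigned to this coding sequence, and the sum of the pair was 182 ± 65 TPM, from 52.7 through 179 to 379. With the copy added, the mean rank among all genes moved from 1038 to 92. The sum exceeded Sec61b in most cells, since Sec61b was higher in 19.

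Srp9 and Gm13736 were divided nearly evenly on average, with a wide spread between cells. Srp9 had 32 ± 7.25 TPM, from 9.72 through 31.3 to 50.95, and Gm13736 33.7 ± 23 TPM, from 0 through 30.6 to 91.88. The copy was at or above 1 TPM in all but 7 cells and higher than Srp9 in 47. Their sum was 65.7 ± 25.9 TPM, with a coefficient of variation (CV, SD over mean) of 0.394 against 0.226 for Srp9 alone. By contrast Gm10320, whose transcript differs from that of Sec61b at 8 of 474 bases, had a mean of 0.146 TPM against 129 ± 38.1 for Sec61b. Which gene the reads of the identical stretches came from was not tested, and values of Sec61g and Srp9 below are those deposited unless the copy is named. Other copies and antisense overlaps of members (for Srpr, Srprb, Sec62, Spcs2 and Krtcap2) had means below 0.1 TPM, and a copy of Sec61b, Gm5870, had 0.0859 TPM.

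**Figure D1:**
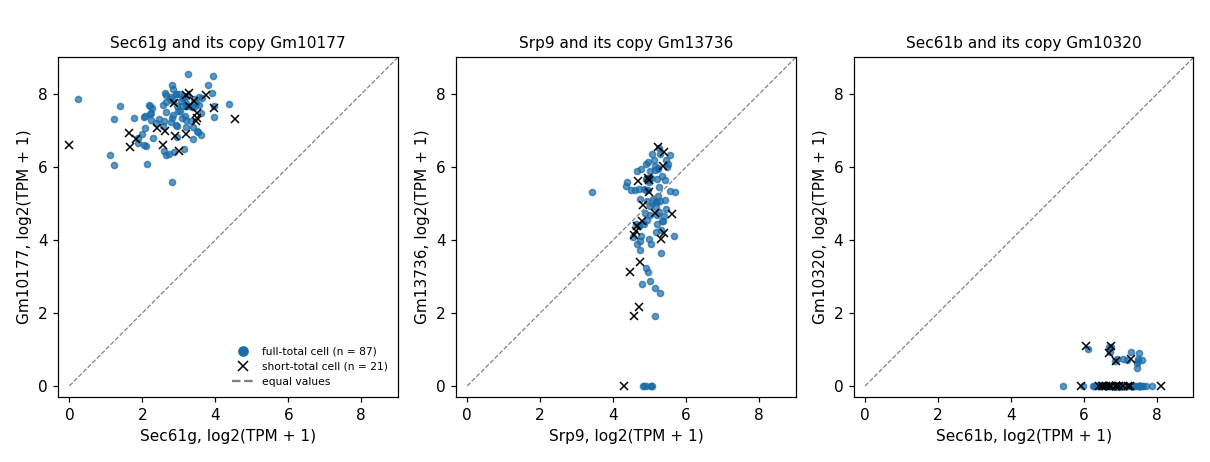
Each point is 1 cell, with the member's log2(TPM + 1) on the horizontal axis and that of its copy on the vertical axis. Circles are full-total cells and crosses short-total cells, and the dashed line marks equal values. Every cell lies above the line for Sec61g, cells lie on both sides for Srp9 (47 above), and none lies above it for Sec61b.

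The machinery was measured in nearly every cell. At or above 1 TPM, 24 of the 31 genes were detected in every cell, and 64 cells had all 31. The exceptions were Ssr3 (99.1% of cells), Sec61g and Sec11a (98.1% each), Srprb (96.3%), Stt3a (95.4%), Stt3b (92.6%) and Sec63 (75 cells, 69.4%, exact binomial interval 59.8% to 77.9%, counting error only). The fewest members, 26, were detected in the cell with the fewest genes. Together the members summed to 939 ± 167 TPM per cell, from 546 in cell 97 through a median of 922 to 1439 in cell 24. Since digestive enzymes took a median of 89% of each cell's TPM (75.4% to 93.4%), this was 0.0933% of all TPM and 0.865% of the TPM outside the enzyme list.

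Subunits of the same complex were listed at very different levels per length. In the SRP group, Srp9 (32 ± 7.25 TPM), Srpr (20.8 ± 5.93), the receptor's GTPase subunit that docks the SRP, and Srp19 (17.2 ± 7.33), an RNA-binding assembly subunit, were highest. Srp14 followed at 13.1 ± 5.26 TPM, and Srp68 (7.38 ± 2.64) and Srp72 (5.45 ± 2.19), which bind each other on the SRP RNA, were within 1.39 times of each other by the median ratio. Srprb, the membrane anchor of the receptor, had 3.99 ± 1.94 TPM, and Srpr was higher in every cell, with a median ratio of 4.87. The SRP subunit that reads the signal sequence is outside the 31 members and has several gene copies in the mouse: Srp54c had 9.23 ± 3.58 TPM and Srp54a 6.88 ± 3.83, with Srp54c higher in 85 cells. Shared sequence was searched for members only, so how reads were divided between these 2 genes was not tested.

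The channel group was led by Sec61b at 129 ± 38.1 TPM, from 41.73 in cell 53 through 122 to 275.64 in cell 92. Sec61a1, which forms the pore itself, had 22.4 ± 8.87 TPM, from 5.36 in cell 84 through 20.6 to 62.33. The beta subunit was thus higher than the alpha subunit in every cell, by a median of 5.81 times (1.1 to 33.9), although the complex holds them in equal numbers. Sec61a2, the other alpha subunit gene, had 0.586 ± 0.932 TPM and was detected in 23 cells. Tram1, a membrane protein next to the channel, had 37.7 ± 11.6 TPM, while its paralog Tram2 reached 1 TPM in 1 cell. Sec62 (6.93 ± 2.34 TPM) exceeded Sec63 (1.96 ± 1.39), the membrane J-protein that recruits the chaperone BiP, in all cells but 1.

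In TRAP, which contacts the ribosome and helps weak signal sequences to open the channel, Ssr4 stood first among all 31 members. It had 169 ± 32.5 TPM, from 62.05 in cell 53 through 167 to 263.96 in cell 24, and ranked 100th of all genes by mean. Ssr2 (21.7 ± 9.67), Ssr3 (16.1 ± 6.58) and Ssr1 (3.78 ± 1.37) followed, and Ssr4 exceeded each of them in every cell, by medians of 8.01, 11 and 47.5 times.

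Sec11c and Sec11a are the alternative catalytic subunits of signal peptidase, and their mRNAs were at very different levels. Sec11c had 109.5 ± 23.7 TPM, from 54.39 through 109.8 to 181.02, and Sec11a 6.04 ± 3.09, from 0 through 5.75 to 16.18. Their ranges did not overlap, and the median ratio was 18.7. Of the accessory subunits, Spcs1 had 64.1 ± 18.7 TPM, Spcs2 11.1 ± 2.88 and Spcs3, which the active enzyme requires, 8.55 ± 3.72. Spcs1 was higher than Spcs2 and Spcs3 in every cell.

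The alternative catalytic subunits of the oligosaccharyltransferase, Stt3a and Stt3b, were the lowest of its 9 members. Stt3a, which works at the channel during translation, had 3.68 ± 1.96 TPM, from 0.37 through 3.69 to 11.40. Stt3b, which serves sites that were skipped, had 2.76 ± 1.47 TPM, from 0 through 2.56 to 7.51. These paralogs were close, with Stt3a higher in 65 cells and a median ratio of 1.29. The small subunits were far above them: Krtcap2 at 57.9 ± 14.2 TPM, Dad1 at 52 ± 15, Tmem258 at 33.2 ± 10.9 and Ostc at 23.2 ± 8.04, of which Krtcap2 and Ostc belong to the Stt3a form. Rpn2 (22.7 ± 6.95 TPM) and Ddost (21.7 ± 6.62) stood above Rpn1 (7.08 ± 3.20), with Rpn2 higher than Rpn1 in every cell. Of the subunits particular to the Stt3b form, Magt1 had 8.88 ± 3.00 TPM and Tusc3 1.57 ± 1.44, and Magt1 was higher in all cells but 1.

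Along the order of means, neighbours often could not be ranked within a cell. Ssr4 exceeded Sec61b in 99 cells, Sec61b exceeded Sec11c in 78, and Sec11c exceeded Spcs1 in all but 3. From Ostc through Rpn2, Sec61a1, Ssr2 and Ddost, each gene exceeded the next in only 46 to 58 cells. Across the 31 members mean TPM went down with protein length (Spearman -0.56 across genes, which are not independent). Over 6791 genes with an annotated coding sequence the same value was -0.37, so the shorter proteins' mRNAs had the higher TPM in both. With the length of the annotated transcript the values were -0.73 for the members and -0.38 for the 6791 genes.

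**Figure D2:**
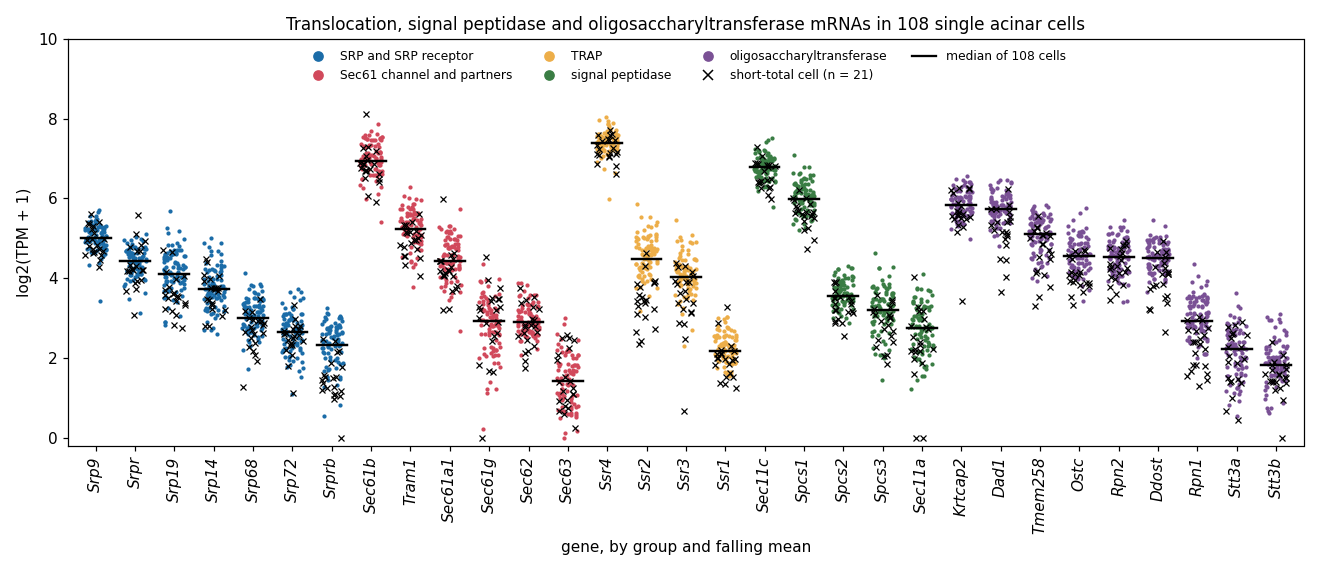
Each point is 1 cell, with log2(TPM + 1) on the vertical axis and the 31 genes along the horizontal axis, by group and falling mean. Colours mark the groups, black crosses the 21 short-total cells and bars the median over cells. Ssr4, Sec61b and Sec11c lead with means of 169, 129 and 109.5 TPM, and Sec63 is lowest at 1.96 TPM.

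The members varied little between cells for their level. The squared CV of each gene was divided by a trend fitted against mean TPM over 7227 genes detected in at least 10% of cells, and 0 of 31 members reached 2 times the trend, where 12.0% of all genes did. The median ratio was 0.81 (all genes 1.00), from 0.35 for Ssr1 and Spcs2 to 1.41 for Ssr2. The count stayed at 0 at 1.5 times the trend, which 21.7% of all genes passed. With their copies added, Sec61g was at 1.86 and Srp9 at 1.63. The ER chaperone Hspa5 (BiP), which pulls chains through the channel, was at 3.92, with 114 ± 63.4 TPM from 24.6 through 97.3 to 312.86.

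The members co-varied to a modest degree, with nearly the same median within groups as between them, although single groups differed. Over 465 pairs the median Spearman correlation across the 21 short-total and 87 full-total cells was 0.265, against 0.056 for all pairs of genes and 0.123 for pairs of the 1226 genes above 0 in every cell. The 88 pairs inside a group had a median of 0.266 and the 377 pairs between groups 0.265. By group the medians were 0.378 in TRAP (0.352 with the other groups), 0.344 in signal peptidase (0.308) and 0.321 in the oligosaccharyltransferase (0.274). In SRP the median was 0.169 (0.222 with the other groups). The Sec61 group, which includes Sec62, Sec63 and Tram1, had 0.115 (0.189). Within sets of cells the value for all members was 0.228 in full-total cells, 0.195 in short-total cells, 0.267 in cells 1 to 48 and 0.194 in cells 49 to 91.

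This shared variation went along with how many genes a cell showed. The cells share 1 preparation procedure and have unknown depths, so these correlations are given as descriptions. The members' score (mean z-score of log2(TPM + 1)) had a Spearman correlation of 0.74 with the number of genes detected and 0.82 with the same score over all other genes. Median-of-ratios scaling sets each cell by the median over the 1226 genes above 0 in every cell, 26 of the members among them. It works to remove a level that these genes share, so their own value near 0 is set in part by the scaling. After it, the median over member pairs was 0.055 (within groups 0.057, between groups 0.055), against 0.015 for all genes and -0.003 for genes above 0 in every cell. After regression of each gene on the count of genes a cell showed, the medians were 0.15 for member pairs and 0.004 for all genes. The first principal component held 33.2% of the members' variance as deposited and 17.5% after this scaling. The correlation of the members' score with that over all other genes was then 0.09.

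A set of pairs kept high values under both scalings. Ssr1, the alpha subunit of TRAP, and Rpn1, the oligosaccharyltransferase subunit that holds substrates near the active site, had the highest value of all pairs under both, 0.72 as deposited and 0.61 after scaling. Tram1 with Spcs3 was the second under both, at 0.71 and 0.56. Sec61a1 had 0.66 with Ssr3 and 0.66 with Ssr1 (0.52 and 0.49 after scaling). Rpn1 had 0.63 with Srprb (0.52), both of them lower in short-total cells (log2 differences of -0.85 and -0.90). The pairs named here join different complexes. Of the 20 highest pairs 2 lay inside a group, where 18.9% of all pairs do. The 20 pairs are not independent, since genes such as Sec61a1, Ssr3 and Rpn1 recur among them. Of the 20 highest pairs as deposited, 16 were among the 20 highest after scaling.

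Small-subunit mRNAs of high level formed other high pairs. Ssr4 had 0.61 with Sec61b and 0.59 with Sec11c (0.36 and 0.47 after scaling), although it had 0.25 to 0.34 with the other subunits of its own complex. Those within-complex values were -0.07 with Ssr1, -0.10 with Ssr2 and -0.09 with Ssr3 after scaling. Some subunits that bind each other directly had low values, 0.16 for Srp9 and Srp14, 0.13 for Srpr and Srprb, 0.24 for Sec61a1 and Sec61b and 0.31 for Srp68 and Srp72. Other pairs inside a group were higher, and 4 of the 88 reached 0.5. These were Ssr1 with Ssr3 (0.64), Sec61a1 with Tram1 (0.62), Ddost with Rpn1 (0.56) and Rpn1 with Rpn2 (0.53). After scaling they had 0.45, 0.43, 0.34 and 0.35. Sec61b and Sec61g had 0.30 as deposited, which became 0.57 with Gm10177 added to Sec61g (0.42 after scaling). Adding a copy did not raise values in general. Over the pairs with other members, the median for Sec61g went from 0.07 to 0.15 as deposited. For Srp9 with Gm13736 it went from 0.18 to 0.10. After scaling both were at -0.01 with the copy. The lowest pair was Sec63 with Spcs3, at -0.11.

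**Figure D3:**
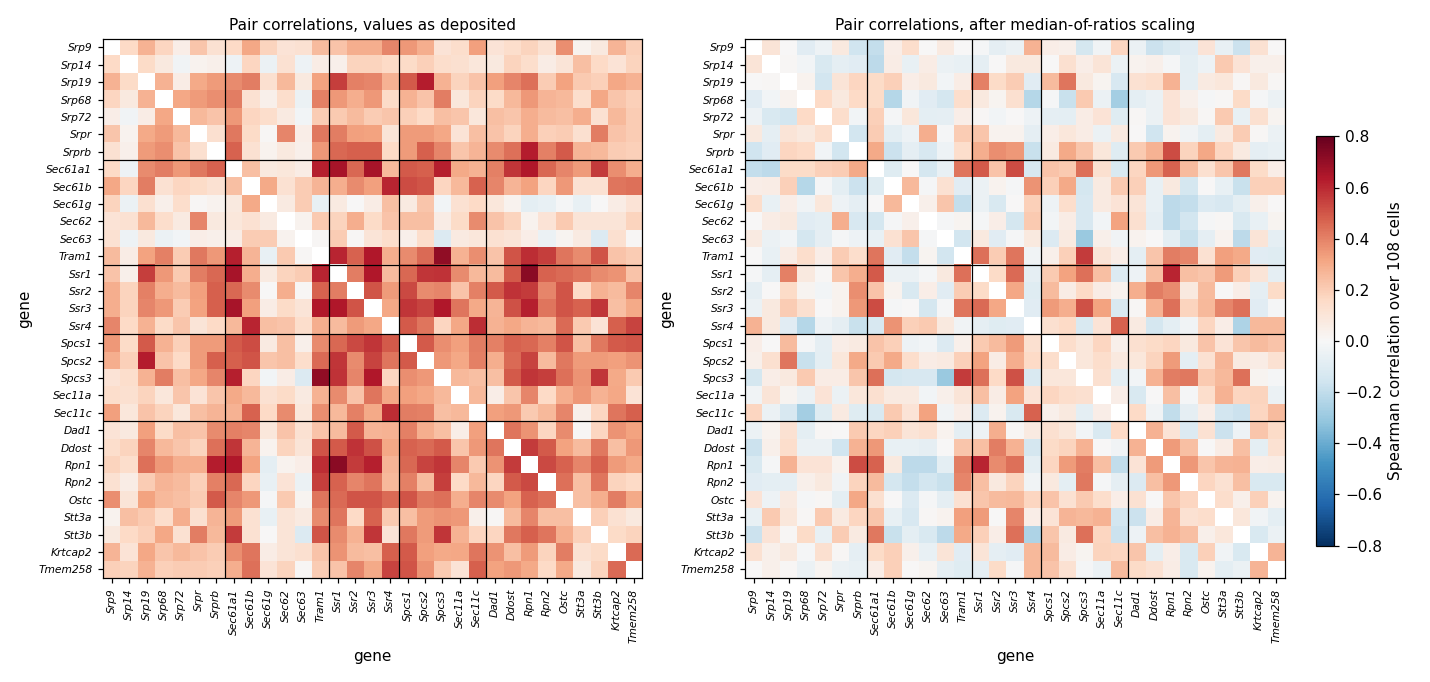
Each square is the Spearman correlation of 2 members over all cells, on values as deposited at the left and after median-of-ratios scaling at the right, with lines between the 5 groups. Red stands for positive and blue for negative values on a scale from -0.8 to 0.8. The median is 0.265 at the left and 0.055 at the right, while squares such as Ssr1 with Rpn1 remain red (0.72 and 0.61).

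Members also differed in which other genes they followed. A correlation of at least 0.5 with Hspa5 was reached by 7 of 31 members, where 0.775% of all genes reached it: Ssr1 (0.70), Rpn1 (0.69), Sec61a1 (0.62), Ssr3 (0.58), Srprb (0.53), Spcs3 (0.53) and Spcs2 (0.52). The median over members was 0.39, against 0.10 over all genes, and all 31 values were above 0, the lowest being Srp14 at 0.01. These values pool short-total and full-total cells, and Hspa5 was lower in the short-total cells (log2 difference -1.15). The 7 members were lower there too, from -0.90 (Srprb) to -0.29 (Ssr1). How much of the correlations goes with this difference was not tested. After median-of-ratios scaling Ssr1 (0.62) and Rpn1 (0.60) remained at or above 0.5, where 0.291% of all genes did, and the members' median was 0.22 against 0.00.

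The mRNAs with the highest values for ribosomal protein genes were others. With the score of 79 ribosomal protein genes, Sec61b had 0.52, Ssr4 0.48, Krtcap2 0.48, Spcs1 0.42, Tmem258 0.42 and Sec11c 0.41. Sec61a1 had 0.00, Tram1 -0.02 and Spcs3 -0.06. The division was not clean: with Hspa5, Spcs1 had 0.44 and Krtcap2 0.41, and the others of the high genes 0.18 to 0.25. Spcs2 had 0.30 with the ribosomal score, and the other members at or above 0.5 with Hspa5 had -0.06 to 0.14. After scaling, Krtcap2 had 0.34, Sec61b 0.28, Ssr4 0.25, Tmem258 0.16, Sec11c 0.09 and Spcs1 0.04, and Sec61a1 (-0.43), Tram1 (-0.48) and Spcs3 (-0.50) were negative. These values went with protein length: across the 31 members their Spearman correlation with the number of residues was -0.69 as deposited and -0.55 after scaling. For the values with Hspa5 it was 0.15 and 0.17. Whether length itself plays a part in the measured values was not tested.

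**Figure D4:**
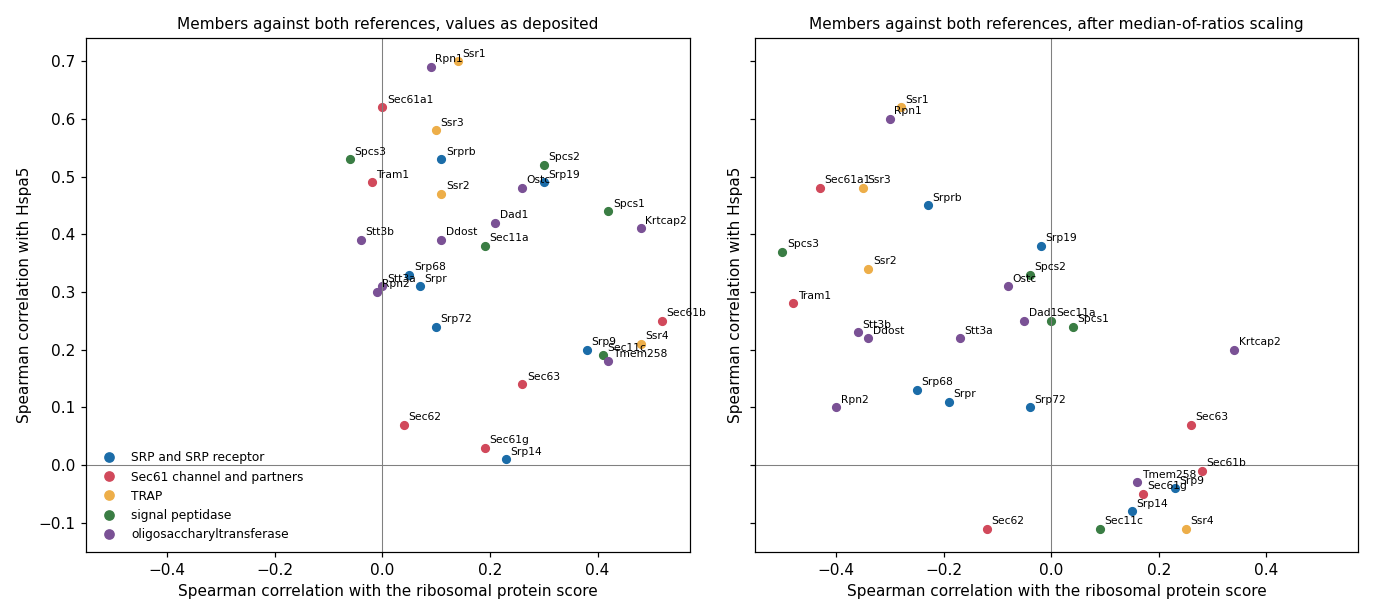
Each point is a member, with its Spearman correlation with the ribosomal protein score on the horizontal axis and with Hspa5 on the vertical axis, over all cells, as deposited at the left and after median-of-ratios scaling at the right. Colours mark the groups. Ssr1 and Rpn1 are at the top of both panels (0.70 and 0.69, then 0.62 and 0.60), and Sec61b lies at the right of the left panel (0.52) at a low value for Hspa5 (0.25).

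Hspa5 is a target of the unfolded protein response, and its promoter holds the ER stress response element (ERSE), CCAAT and CCACG separated by 9 bases, to which ATF6 binds together with NF-Y. Because some members followed Hspa5, RefSeq start-site windows (GRCm38.p6, 250 bases before to 50 after the start) were searched on both strands. A window was found for 23 of 31 members. The ERSE was found in 0 of these 23, in 5 of 11 ER chaperone genes with a window (Hspa5, Hsp90b1, Dnajc3, Pdia6 and Creld2) and in 0.137% of 27025 genes. The related ERSE-II, ATTGG and CCACG separated by 1 base, was found in Krtcap2 alone among the members, in Dnajb11 and Herpud1 among the chaperones, and in 0.0444% of genes. TGACGTGG, the unfolded protein response element, was found in 0 of 23 members, 0 of 11 chaperones and 0.714% of genes. CCACG by itself, which ERSE and ERSE-II contain, was in 16 of 23 members, 11 of 11 chaperones and 35.5% of genes, and CCAAT by itself in 13 of 23, 11 of 11 and 41.1%. The sites of Hspa5, at chr2:34772021-34772047 (plus strand), and of Krtcap2, at chr3:89246486-89246504 (plus strand), just past an annotated start, are printed with the motif letters in capitals and 4 flanking bases on each side.
Hspa5, ERSE: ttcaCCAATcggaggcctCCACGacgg
Krtcap2, ERSE-II: acggATTGGaCCACGgacg
Krtcap2 had a correlation with Hspa5 of 0.41 as deposited and 0.20 after scaling. A match is a run of letters and was not tested as a site, and no match covers these windows only.

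The wider secretory pathway was compared through the correlation of each gene with the members' score. At least 0.5 was reached by 2.46% of genes as deposited and 0.111% after median-of-ratios scaling. The genes most like the members were Serp1 (0.79), a small Sec61-associated protein, the disulfide isomerase Pdia6 (0.74), Arf4 (0.74), the BiP co-chaperones Dnajc3 (0.72) and Dnajb11 (0.70), and P4hb (0.72), the signal peptide peptidase H13 (0.69), Arcn1 (0.68), Hspa5 (0.68) and Eif5a (0.68). After scaling Hspa5 ranked first at 0.64 and Serp1 had 0.56, whereas Eif5a had 0.19. The lowest values were those of Ctrb1 (-0.33), a chymotrypsinogen, Sycn (-0.31), Eef1akmt2 (-0.31), Lfng (-0.27) and 2210010C04Rik (-0.26). Those of Ctrb1, Sycn and 2210010C04Rik turned to 0.15, 0.09 and 0.36 when the enzymes were left out of each cell's total.

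ER chaperones stood closest among the lists, with 11 of 13 genes at or above 0.5 (median 0.65) and 6 of 13 after scaling. Of the glycoprotein folding and trimming genes, whose products handle glycoproteins after sugar transfer, 7 of 14 reached 0.5 (Pdia3 0.65, Mcfd2 0.63, Calr 0.60), and after scaling Pdia3 (0.55) did. Other translocon genes had 4 of 13, among them Srp54c (0.65) and Magt1 (0.62), and 0 after scaling. Enzymes that build the lipid-linked sugar tree had 0 of 21, the highest being Alg2 at 0.44. The ER membrane complex had 0 of 9 and the tail-anchor (GET) pathway 0 of 6, the alternative entry routes for membrane proteins. These 3 lists were of low level, with medians of mean TPM of 1.43, 2.87 and 2.59, against 40.6 for the chaperones. The mean z-scores of these lists had 0.69, 0.48 and 0.41 with the members' score as deposited. The chaperone score had 0.84, and that of all other genes 0.82. Of the unfolded protein response factors 1 of 9 reached it, Atf4 (0.57), while Xbp1, at 59.7 ± 19.2 TPM, had 0.34. Ribosomal protein genes had 2 of 79, with a median of 0.25 as deposited and -0.22 after scaling.

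The short-total cells were lower in most members, and how much lower depended on the scaling. Mean log2(TPM + 1) in these 21 cells minus that in the 87 full-total cells had a median of -0.34 over the members, 29 of them below 0. Over all genes it was -0.15, but this gap depended on the setting. With 0.1 added to TPM in place of 1, the medians were -0.35 for members and -0.30 for all genes. Among genes above 0 in every cell they were -0.32 and -0.25. A difference of -0.5 or lower was found in 8 members, where 7.28% of all genes had it: Ssr2 (-1.17), Srprb (-0.90), Rpn1 (-0.85), Ssr3 (-0.64), Dad1 (-0.62), Ddost (-0.61), Srp19 (-0.59) and Ostc (-0.54). Scaled to each cell's own total it was 7 members (background 5.44%) with a median of -0.26. With the enzymes left out of the total the members' median was 0.01 and with median of ratios -0.06, and 3 members were left under each, Ssr2, Srprb and Rpn1 (background 13.3% and 2.05%).

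These 3 genes had differences of -0.5 or lower under all 4 scalings. Ssr2 had a median of 9.77 TPM in short-total cells (4.08 to 23.58) and 23.4 in full-total cells (8.11 to 56.92). Srprb had 1.72 TPM (0 to 4.52) against 4.44 (0.46 to 8.53), and Rpn1 4.06 TPM (1.45 to 7.20) against 7.52 (3.00 to 19.40). The ranges overlapped for each of them. Hspa5 was lower too, at a median of 51 TPM against 107.3 (log2 difference -1.15, and -0.87 with median of ratios). Sec61g (0.08) and Sec63 (0.02) were the members not lower as deposited, but Sec61g was at -0.15 with Gm10177 added. Summed members had medians of 746 TPM in short-total and 949 in full-total cells, but made up 0.859% and 0.866% of the TPM outside the enzymes. The short-total cells are also those of high cell number, so the total and the order of the cells cannot be told apart. Between the 40 full-total cells numbered 49 to 91 and the 47 numbered 1 to 48 the members' median difference was -0.03 (all genes -0.04), with single members from -0.30 (Srp19) to 0.16 (Srp72).

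**Figure D5:**
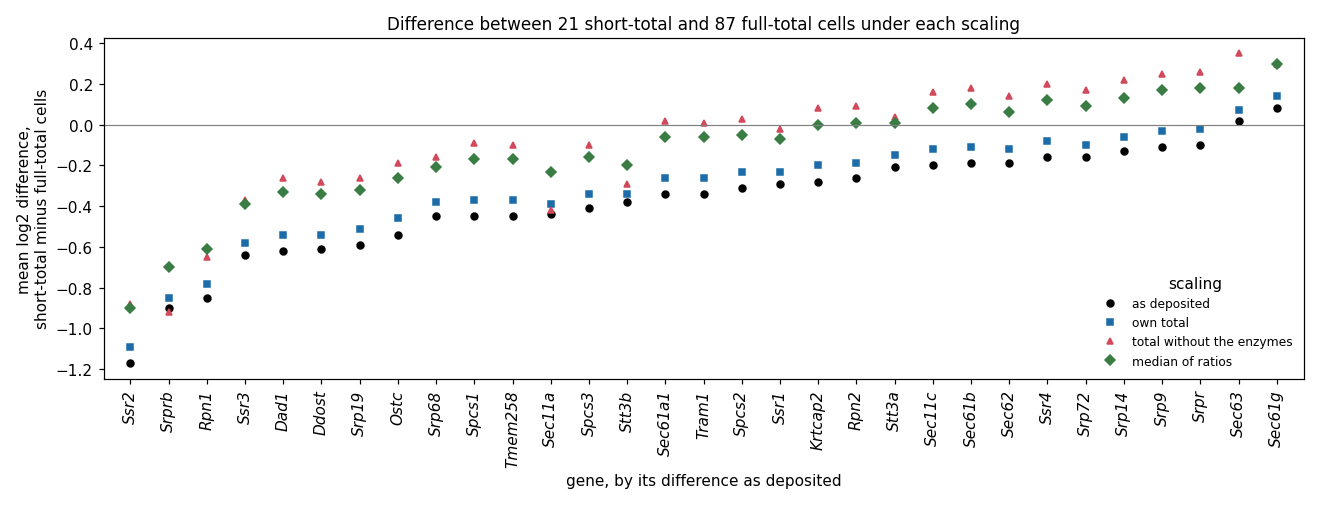
Each column is a member, and each symbol its mean log2(TPM + 1) in 21 short-total cells minus that in 87 full-total cells under 1 of 4 scalings. Ssr2, Srprb and Rpn1 are lowest under all of them (-1.17, -0.90 and -0.85 as deposited). With the enzymes left out of the total, the other members lie on both sides of 0, from Sec11a (-0.42) to Sec63 (0.35). With median of ratios they do so from Ssr3 (-0.39) to Sec61g (0.30).

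By cell, the low end of the members' score was held mainly by short-total cells, with 8 among the 10 lowest (6 after median-of-ratios scaling) and 0 among the 10 highest. The lowest cell (-1.87) held the lowest value of 10 members, among them Ssr2 (4.08 TPM), Ssr3 (0.60), Dad1 (11.67) and Krtcap2 (9.67). It was also the cell of lowest total and fewest genes. At the high end were cells 39 (1.32), 24 (1.17) and 1 (1.07), with summed members of 1324, 1439 and 1319 TPM. Cell 24 had the highest Ssr4, Ssr2, Sec11c, Spcs2 and Krtcap2, and cell 1 the highest Tram1, Ssr3, Spcs3, Sec11a and Stt3b. Cell 53, a full-total cell with a score of -0.17, held the lowest Srp9, Sec61b and Ssr4, and the last short-total cell by number, with a score of 0.37, held the highest Srpr (46.67 TPM), Sec61a1 (62.33), Sec61g (22.11) and Ssr1 (8.64). Cell 40, with 6946 genes and endothelial markers, was at 0.95 as deposited and at -0.12 after scaling.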

How the data were processed

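Single acinar cells of mouse pancreas were measured by full-length RNA sequencing. The authors deposited TPM for 45195 gene rows in 108 cells, rounded to 2 decimals, and the unit was read from the column totals. The submitters' processing notes list STAR 2.4.2a, RSEM 1.2.21, edgeR and the build mm10 without saying what each was used for. How reads shared by near-identical transcripts were assigned is not given in the sources used here. Gene IDs were matched to symbols for 44548 rows, and positions are whole-gene spans of GENCODE M21 on GRCm38.

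Detection was at or above 1 TPM, with exact 95% binomial intervals. Correlations are Spearman values of log2(TPM + 1) over cells. A lowess trend (span 0.3) of the squared CV on mean TPM was fitted on log10 scales over genes that reached detection in 10% of cells (11 cells) or more. Values were rescaled to each cell's total, to the total without 41 digestive enzyme genes, or by median of ratios. Short-total cells sum to less than 1000000 by more than 100. Copies are transcripts of other genes sharing at least 200 bases at 95% identity or more (BLAST+ 2.17.0). Functions were tested on simulated data. Every cell was kept, and doublets were not called. No 2 cells held identical columns. Python 3.11.15, scipy 1.17.1 and statsmodels 0.14.6 were used.

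Members and gene lists were chosen with earlier results of these data known, and the bound after cell 48 comes from them. Named are all members, the 3 highest and 2 most variable genes of other pathway lists where a result turns on them, the 10 highest and 5 lowest genes by the members' score, paralogs and reference genes. Other names (copies, Alg2, list extremes, motif holders) were chosen after their values were seen.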

Additional observations from a re-analysis of the deposited data

How the results depend on the processing

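The count of members above the variability trend (0) held under every alternative run. The summed level was a median of 922 TPM over all cells. It was 8646 with the enzymes left out of the total, 746 in short-total cells and 1131 with the copies of Sec61g and Srp9 added, an alternative chosen after the data were seen. Pair correlations of 0.265 (all), 0.266 (within groups) and 0.265 (between groups) became 0.055, 0.057 and 0.055 with median of ratios. As residuals on the number of genes detected, the value for member pairs was 0.15, against 0.004 for all genes. The difference of short-total cells (-0.34) turned to 0.01 without the enzymes and was -0.06 with median of ratios. It was -0.30 without the cell of fewest genes, also added after the data were seen. Without the enzymes 15 members were below 0, against 29 as deposited, and Srpr, Srp9, Srp14, Ssr4, Sec61b, Srp72 and Sec11c, for example, turned to 0.26, 0.25, 0.22, 0.20, 0.18, 0.17 and 0.16. The cause of these changes was not tested. No paired analysis was possible because all cells belong to 1 group.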
